A study of Mus musculus with 10 samples.

Results

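RelA (p65), a DNA-binding subunit of NF-κB, was located by chromatin immunoprecipitation and sequencing (ChIP-seq) in macrophages that had received no lipopolysaccharide (LPS), either untouched or after 3 h of the synthetic glucocorticoid dexamethasone (Dex). Regions of the 2 lists were kept when they shared no base with a region of the input DNA list. This left 47 of 83 regions without Dex and 43 of 75 with Dex. Joined where they overlapped by at least 1 bp, they formed 71 places, of 115077 regions listed in the whole series. RelA was called in both lists at 19 places, without Dex alone at 28 and with Dex alone at 24.

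All groups were primary bone marrow-derived macrophages of C57BL/6J mice, for which the labels list no modified allele, and the input DNA came from untreated cells. Each condition was 1 library, so no difference between conditions has a replicate check. For comparison, the other RelA libraries were from cells given LPS for 3 or 8 h without Dex, for 3 or 8 h after 3 h of Dex, and for 8 h with Dex given late, at an hour the labels do not state. The glucocorticoid receptor (GR) was precipitated from cells given Dex and from cells given LPS and Dex, for times the labels do not state, after a double cross-link with disuccinimidyl glutarate and formaldehyde. No GR library without Dex was analysed here. The list called resting without Dex here is labelled 0 h of LPS, although it was deposited under a name that carries a further 3 h.

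In resting cells most RelA is held in the cytoplasm by inhibitors of the IκB family. LPS acts through Toll-like receptor 4, the inhibitors are degraded, and RelA enters the nucleus and binds κB motifs at genes of inflammation and at genes that restrain it. A small amount of RelA reaches chromatin without a stimulus. Dex binds GR, which then moves to the nucleus, binds DNA or other factors on it, and is known to lower the output of many NF-κB target genes in macrophages.

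The strongest RelA region of the whole 3 h LPS list was already called in both resting lists, and it lay at the start of Tnfaip3, which encodes A20, an enzyme that shuts off NF-κB signalling. The place spanned chr10:18734936-18735531 on mm9, the build of all region positions given here. Its sequence is shown because the place tops the 3 h list and the start of the gene, as known on mm9, lies inside it. No mm9 sequence was used here, so the 250 bases before the first of the Tnfaip3 starts in the RefSeq promoter table are printed, on build GRCm38.p6, minus strand, chr10:19015411-19015660, a position that cannot be set beside the mm9 ones. The capitals mark the only match to an NF-κB motif, searched on both strands as GGG, any 3 bases and TTCC, which here reads on the opposite strand and ends 2 bases before the annotated start.
Tnfaip3: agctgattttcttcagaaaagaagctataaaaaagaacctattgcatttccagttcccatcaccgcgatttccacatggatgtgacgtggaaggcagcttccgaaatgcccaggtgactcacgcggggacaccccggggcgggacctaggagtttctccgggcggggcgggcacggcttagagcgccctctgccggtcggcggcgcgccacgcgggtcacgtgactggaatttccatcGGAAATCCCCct
Of the 32851 promoters in that table, 4.65% held this motif in the same 250 bases. A palindromic GR motif (AGAACA, any 3 bases, TGTTCT) had no match in the printed bases and was in 3 promoters of the table. A match is a run of letters and not a measured site.

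At this place the highest tag density in the region (MaxD, the authors' value, whose scaling between libraries is not stated) was 31.9 without Dex and 23.7 with Dex. It was 171 at 3 h of LPS and 142 at 8 h, 25.7 with Dex before 3 h of LPS, and 55.5 with late Dex. No region was called there with Dex before 8 h of LPS. GR was not called on it with Dex, and was called with LPS and Dex at a MaxD of 47.7. Both resting values lay far below the LPS values without Dex, and the value with Dex before 3 h of LPS lay between the resting ones.

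The comparison of the resting lists asks how basal RelA regions differ with Dex alone. The lists were of like length, and most regions of each had no partner in the other. Shared places made up 40.4% of the list without Dex (Wilson 95% interval 27.6 to 54.7) and 44.2% of the list with Dex. The intervals of this text cover counting error of regions only. Among the regions set aside because they met input, 18 of 36 without Dex met a region with Dex. The share found again was thus 50.0% even at regions that input DNA also shows, where many calls likewise had no partner.

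RelA tag density was lower with Dex at 14 of the 19 shared places and higher at 5. The median was 25.0 without Dex and 20.9 with Dex, and the median ratio of Dex to no Dex was 0.837 (lowest 0.622, highest 2.03). At the 18 shared pairs that met input the order was turned, with Dex higher at 13, no Dex higher at 5 and a median ratio of 1.13. When the densities were scaled to equal medians at those pairs, a choice made after the data had been seen, Dex was lower at 17 of the 19 places and the median ratio was 0.740. Past 1.5-fold, 3 places were lower with Dex and 2 higher, against 18.9% lower and 16.2% higher among all 37 shared pairs with input regions kept. Scaled to input, 7 were lower and 1 higher. The counts past 1.5-fold, as deposited, were near those of all 37 shared pairs, but these include the 19 places themselves. Among the 18 pairs that met input, 4 were lower past 1.5-fold with Dex and 4 higher. The same Dex region, at 163, was in 2 of these 18 pairs, against 139 and 83.8 without Dex. It thus enters their counts, their median ratio and the scaling more than 1 time.

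**Figure D1:**
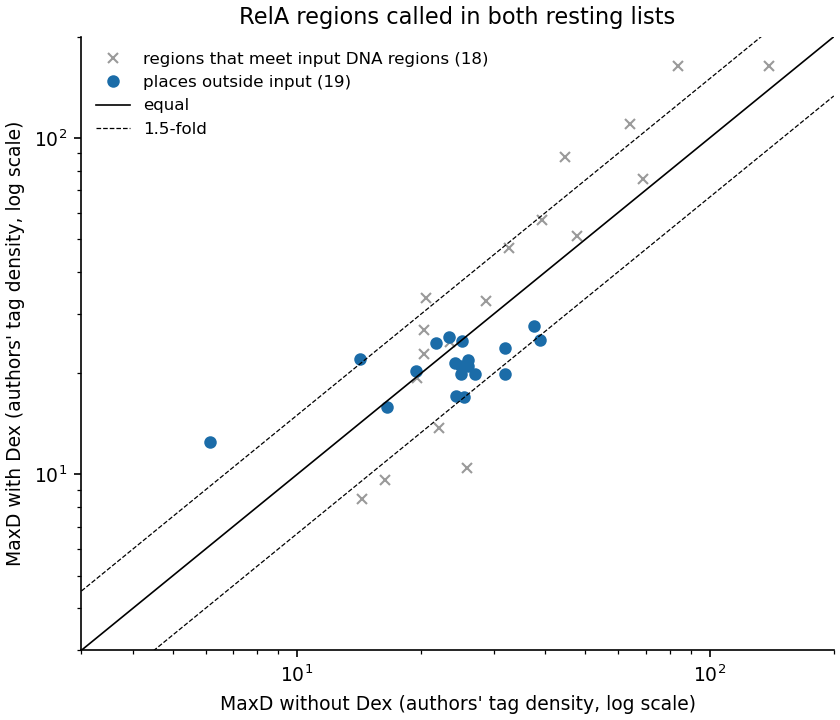
MaxD of RelA without Dex (x axis) and with Dex (y axis), both the authors' tag density on log scales, at the 19 places outside input (blue points) and at 18 shared pairs that meet input (grey crosses); the solid line marks equal values and the dashed lines 1.5-fold. The blue points sit between 12.5 and 27.6 with Dex and mostly below the line of equality, while most crosses lie above it.

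Shared regions were also narrower with Dex, at 13 of the 19 places, with a median width of 409 bp against 566 bp. The pairs that met input had medians of 508.5 and 571 bp, and there Dex was wider at 12 of 18. The centres of the 2 calls at a place lay 22.5 bp apart at the median and at most 111 bp.

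Gene names here are background knowledge of mm9 positions and were not read from a file, and the other places are given by position alone. At Sod2, which encodes the mitochondrial manganese superoxide dismutase, RelA was called at chr17:13202797-13203464 with a MaxD of 37.6 without Dex and 27.6 with Dex. It reached 164 at 3 h of LPS, the second highest of that list, 132 at 8 h and 74.4 with late Dex. As at Tnfaip3, GR was called there with LPS and Dex (100.3) and not with Dex.

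Downstream of Cebpb, the gene of the transcription factor C/EBPβ, RelA was called at chr2:167602794-167603410 with 25.0 without Dex and 19.9 with Dex. Its value was 162 at 3 h of LPS, 90.7 at 8 h, 17.9 with Dex before 3 h of LPS and 43.3 with late Dex. Unlike Tnfaip3 and Sod2, it carried GR in both GR lists, with 46.7 for Dex and 75.0 for LPS and Dex. A second RelA region downstream of the same gene, 22873 bp away at chr2:167579359-167579921, was called with Dex alone and is described with that class. The next closest pair of places, on chromosome X, lay 777752 bp apart. How far the regions downstream of Cebpb lie from the gene itself is not given here, so they are not said to be close to it.

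At Ikbke, which encodes the kinase IKKε of the NF-κB and interferon pathways, the order was the other way: chr1:133173445-133173837 had 14.2 without Dex and 22.0 with Dex, a ratio of 1.54. RelA was also called there with Dex before 3 h of LPS (21.0), close to the resting value with Dex. Its value was 81.9 at 3 h of LPS and 47.8 at 8 h. GR was 13.1 with Dex and 52.2 with both agents.

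The largest resting density of all places was at chr6:48779492-48780159, with 38.8 without Dex and 25.0 with Dex. It is 1 of the 3 places past 1.5-fold lower with Dex, the others being chr4:102244614-102245188 (32.0 and 19.9) and chr11:43198553-43199197 (25.4 and 17.0). The 2 places past 1.5-fold higher were Ikbke and chr9:48946838-48947324, which went from 6.14 to 12.5. The last was the weakest of the 19 in both lists. It was called in no RelA library with LPS, and its GR values were low, 7.05 with Dex and 6.89 with both agents.

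The other 11 shared places lay close to equality or moderately lower with Dex. RelA was slightly higher with Dex at chr3:78977144-78977664 (21.8 without and 24.5 with), chr12:81912844-81913274 (23.3 and 25.6) and chr10:77597740-77598306 (19.4 and 20.3). It was slightly lower with Dex at chr3:30992455-30992902 (16.5 and 15.9) and chr17:18037645-18038208 (25.1 and 24.9). It was lower by a wider margin at chr10:74789339-74789911 (27.0 and 19.9), chr3:131360999-131361564 (26.0 and 20.9), chr11:70281229-70281798 (25.9 and 21.9), chr13:20878774-20879336 (24.1 and 21.5), chr15:6519027-6519642 (25.0 and 20.9) and chr5:53900668-53901200 (24.3 and 17.1). Of these 11, 3 were thus higher with Dex and 8 lower.

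MaxD split the places into a strong and a weak set. Outside input, no region without Dex had a MaxD between 8.10 and 13.7, and the list with Dex had none between 8.48 and 15.9 except the 12.5 of the chromosome 9 place. A bound of 10 in either list, set after this gap had been seen, gave 50 strong and 21 weak places. All 19 shared places were strong, as were 19 of the 28 places without Dex alone and 12 of the 24 with Dex alone. No weak place was called in both lists, but this follows in part from the rule, since a shared place passed on the higher of its values. The chromosome 9 place was strong by its 12.5 with Dex only. Without Dex it had 6.14, below the bound.

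**Figure D2:**
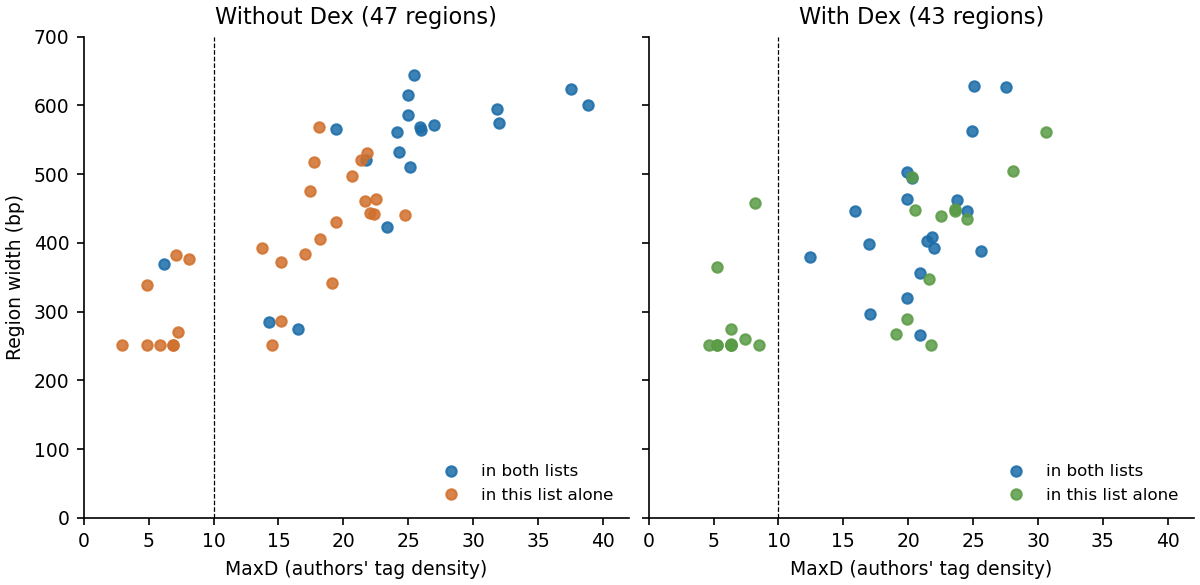
Width in bp (y axis) against MaxD, the authors' tag density (x axis), of each RelA region outside input, without Dex on the left (47) and with Dex on the right (43); blue points are in both lists, orange or green points in 1 list alone, and the dashed line marks a MaxD of 10. Regions under a MaxD of 10 are mostly at the smallest width of 251 bp, and shared regions without Dex gather at the upper right.

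Within the list without Dex, shared regions were the denser and wider ones, with medians of 25.0 and 566 bp. The strong regions of that list alone had medians of 19.1 and 442 bp. With Dex the strong classes differed less: shared regions had medians of 20.9 and 409 bp, and strong regions of that list alone 22.1 and 442.5 bp. With weak places included, calls without a partner were weaker by their median in both lists: 17.2 and 388.5 bp for the 28 without Dex, and 13.8 and 282 bp for the 24 with Dex.

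The 28 places called without Dex alone were led by chr12:86764763-86765204, with a MaxD of 24.7. This place hardly differed under LPS, with 27.9 at 3 h and 23.5 at 8 h, and it carried no GR region. The next were chr15:5445388-5445852 (22.5), chr15:82176247-82176689 (22.3), chr16:3723294-3723737 (22.1), chr8:96889393-96889924 (21.8), chr11:79021227-79021688 (21.6), chr7:25905394-25905915 (21.4) and chr16:93084517-93085015 (20.7). Of these 8, the region of chromosome 15 from 82176247 was in no other RelA list and in neither GR list. The region of chromosome 16 from 3723294 had the highest value of the 8 at 8 h of LPS, 96.6, after 87.6 at 3 h.

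One place of this class was picked after its values had been seen. At chr11:59354728-59355246 RelA had 17.7 without Dex and no region with Dex. It had 123 at 3 h of LPS, rank 9 of that list, and stood at 74.8 at 8 h and at 20.9 with late Dex. GR on it was 47.7 with Dex and 120.3 with both agents, the highest GR values of the class in both GR lists. A second such place, chr10:37058064-37058632, had 18.1 at rest and 107 and 140.5 at 3 and 8 h of LPS.

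The 24 places called with Dex alone were led by the second region downstream of Cebpb, chr2:167579359-167579921, with a MaxD of 30.6, the highest of the list with Dex outside input. RelA there was 137 at 3 h of LPS, 84.5 at 8 h and 51.6 with late Dex. GR was 76.8 with Dex, the highest GR value of the Dex library on any of the 71 places, and 180 with both agents. The place was not called without Dex, although its neighbour 22873 bp away was called in both lists.

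The next by MaxD were chr1:84296284-84296789 (28.1), chr19:10052158-10052593 (24.5), chr6:124223036-124223485 and chr15:100251664-100252110 (23.6 each), chr13:52731503-52731942 (22.5), chr2:152937104-152937355 (21.7) and chr18:61265161-61265509 (21.6). Of these, the region of chromosome 18 lies at Csf1r, the gene of the receptor for the macrophage growth factor CSF-1. RelA at Csf1r had 70.4 at 3 h of LPS and 65.2 at 8 h. All 8 places named in this class were called at 3 h and at 8 h of LPS without Dex, so none was found with Dex only across the RelA lists. GR of the Dex library was called on 4 of the 8, at 76.8 downstream of Cebpb, 25.1 for chromosome 6, 13.7 for Csf1r and 10.7 for chromosome 13. GR of the library with both agents was called on each of them, from 36.8 at Csf1r to 180 downstream of Cebpb.

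The 21 weak places were narrow and rarely seen again. Of these, 12 had the smallest width of the lists, 251 bp, and 8 lay on chromosome X or Y, against none of the 50 strong places. The share of chromosomes X and Y among all listed regions is not given here. In 18 of the 21 no RelA library with LPS had a region. The exceptions were chr12:5623192-5623463, with values of 6.24 to 8.56 in 4 of the 5 libraries with LPS against 7.23 at rest, and the chromosome X places from 122525856 and 123303990. The last lay 30 bp from an input region, the closest of any place kept, and the others were at least 25210 bp from one. Its neighbour in the list without Dex met input and was set aside.

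Nearly all strong places were called under LPS, whichever resting list they came from. At 3 h of LPS without Dex, RelA was called at 18 of the 19 shared places, 18 of the 19 strong places without Dex alone and all 12 strong places with Dex alone, together 96.0% (86.5 to 98.9). By contrast 2 of the 21 weak places were called. As a background of another kind, 6.05% of all GR regions of LPS and Dex held a RelA region of 3 h. Those regions were picked by GR and not by RelA, so the 2 shares are not of like features. No share for RelA regions of like density is given here. Median MaxD at 3 h was 91.8 at the shared places, 55.2 at the strong places without Dex alone and 67.4 at those with Dex alone. The median ratio of the 3 h value to the resting value without Dex was 4.00 at shared places and 3.04 at strong places without Dex alone. Against the resting value with Dex it was 4.21 at shared places and 3.18 at strong places with Dex alone.

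**Figure D3:**
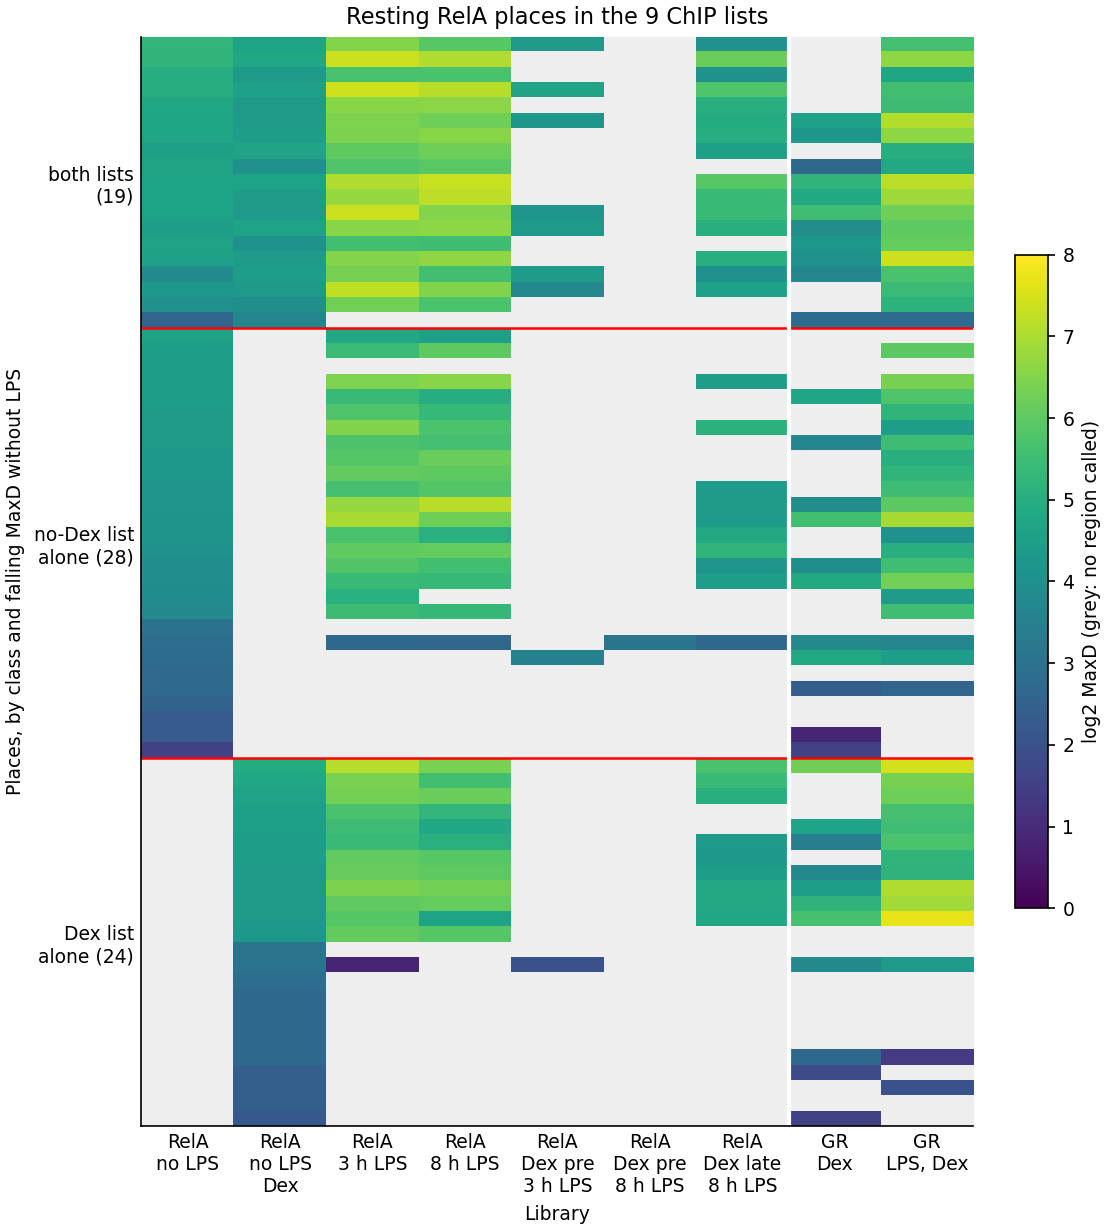
The 71 resting RelA places (rows, grouped by class and ordered by falling MaxD without LPS) in the 9 ChIP libraries (columns); colour is log2 of the highest MaxD of a region on the place and grey means that no region was called. The 3 h and 8 h columns are filled for nearly all rows of MaxD 10 or more in each class, the Dex pretreatment columns are mostly grey, and the lower rows of the last 2 groups are grey under LPS.

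Resting places were found mainly among the densest RelA regions of 3 h of LPS. Ranked by MaxD, the first 6 regions of the 3 h list were all called without LPS: Tnfaip3, Sod2, the shared region downstream of Cebpb (162), chr10:77597740-77598306 (151), the Dex-alone region downstream of Cebpb (137) and chr17:18037645-18038208 (134). Of the 10 highest, 7 were called at rest, and the 3 others were chr11:117807380-117808507 and chr19:22022084-22023086 (133 each) and chr19:6945023-6946053 (117). The share fell to 37.5% (24.2 to 53.0) for ranks 11 to 50, 12.0% for ranks 51 to 100, 6.62% for ranks 101 to 250 and 3.19% for ranks 251 to 500. It was 1 region of 498, of 1041 and of 2931 in the ranges of lower rank. The exceptions among strong places were the region of chromosome 12 from 86764763 at rank 1018 and chr7:31896113-31896364 at rank 635.

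**Figure D4:**
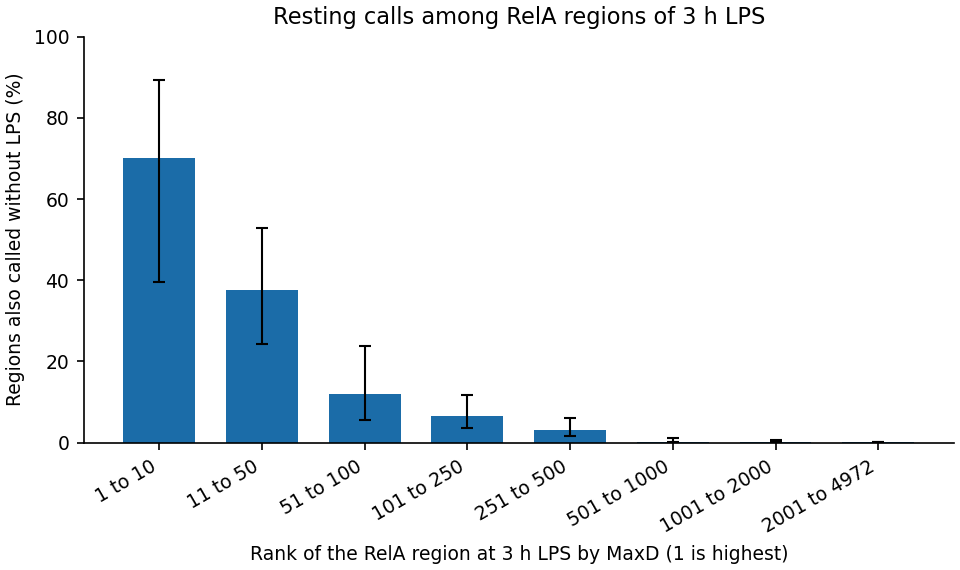
Percentage of RelA regions of 3 h LPS (outside input) that were also called in either resting list (y axis), by rank of MaxD at 3 h (x axis, 1 is the highest); bars are shares and whiskers Wilson 95% intervals. The share is 70.0% for the 10 strongest regions and 3.19% for ranks 251 to 500.

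Nearly all resting places called at 3 h sat inside the LPS region. Of the 50 places called at 3 h, 48 lay wholly within the region of 3 h of LPS, which had a median width of 930 bp against 462.5 bp for the place. At 8 h of LPS 47 of the 50 strong places were called, or 94.0% (83.8 to 97.9), against 31.3% of all RelA regions of 3 h. The 3 not called were the chromosome 9 place, the region of chromosome 15 from 82176247 and that of chromosome 7 from 31896113. The background covers 3 h regions of every density, whereas 46 of the 50 strong places were within the first 500 ranks at 3 h. Density at 3 h was not matched in this comparison, so a link of the 8 h calls to resting occupancy was not tested.

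With Dex before LPS few of the places were called. After Dex and 3 h of LPS RelA was called at 7 of the 19 shared places, 36.8% (19.2 to 59.0), and at none of the 31 strong places of 1 list alone. Of all RelA regions of 3 h, of any density and not matched to these places, 0.241% were called. The 7 were Tnfaip3, Ikbke, the shared region downstream of Cebpb, both places of chromosome 3 from 78977144 and 131360999, the chromosome 6 place from 48779492 and the chromosome 10 place from 77597740. Their values ran from 13.5 to 25.7, against 19.9 to 25.0 at rest with Dex and 81.9 to 171 at 3 h of LPS without Dex. Only Tnfaip3 was higher there than at rest with Dex. The list with Dex before 3 h of LPS held 33 regions outside input in all, so calls were few everywhere. After Dex and 8 h of LPS none of the 50 strong places was called (upper Wilson bound 7.13%), against 0.0805% of all RelA regions of 3 h. That list held 15 regions outside input in all.

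With late Dex more of them were called. RelA was found at 15 of the 19 shared places, 9 of the 19 strong places without Dex alone and 9 of the 12 with Dex alone, against 4.24% of all regions of 3 h. Median MaxD was 32.2, 22.1 and 28.3 in that order. The background of 4.24% was again not matched for density at 3 h. Sod2 had the highest value, 74.4, followed by chr17:18037645-18038208 (61.1) and Tnfaip3 (55.5).

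GR met most strong resting RelA places when LPS and Dex were both given and fewer with Dex. With LPS and Dex, GR was called on all 19 shared places, 17 of the 19 strong places without Dex alone and 11 of the 12 with Dex alone, against 62.0% of all RelA regions of 3 h. With Dex it was called on 11 of 19 (57.9%, 36.3 to 76.9), 6 of 19 (31.6%, 15.4 to 54.0) and 7 of 12 (58.3%, 32.0 to 80.7), against 17.5%. The 3 intervals overlap, but they cover counting error of places only, and overlap is not a test. The conditions had no replicate libraries, so a difference in GR between places seen with and without Dex was not tested. No strong place carried GR with Dex and lacked it with LPS and Dex. The share of all RelA regions of 3 h with GR of Dex alone is not given here, so this cannot be called particular to resting places. Counting only GR regions with a MaxD of at least 10, 92.0% of strong places carried GR with both agents and 44.0% with Dex, against 61.0% and 16.3% of the 3 h regions.

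Because resting places were dense at 3 h of LPS, GR was also compared at dense 3 h regions with and without a resting call. Among 3 h regions with a MaxD of at least 67.4, the median of those with a resting call, 24 of 25 with a resting call met GR of both agents and 63 of 64 without one did. For GR of Dex the counts were 13 of 25 (52.0%, 33.5 to 70.0) and 25 of 64 (39.1%, 28.1 to 51.3). These intervals overlap, and a difference was not tested. The 2 sets share a lower bound only: 22 of the 25 with a resting call were in ranks 1 to 50 of the 3 h list, against 28 of the 64 without one.

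**Figure D5:**
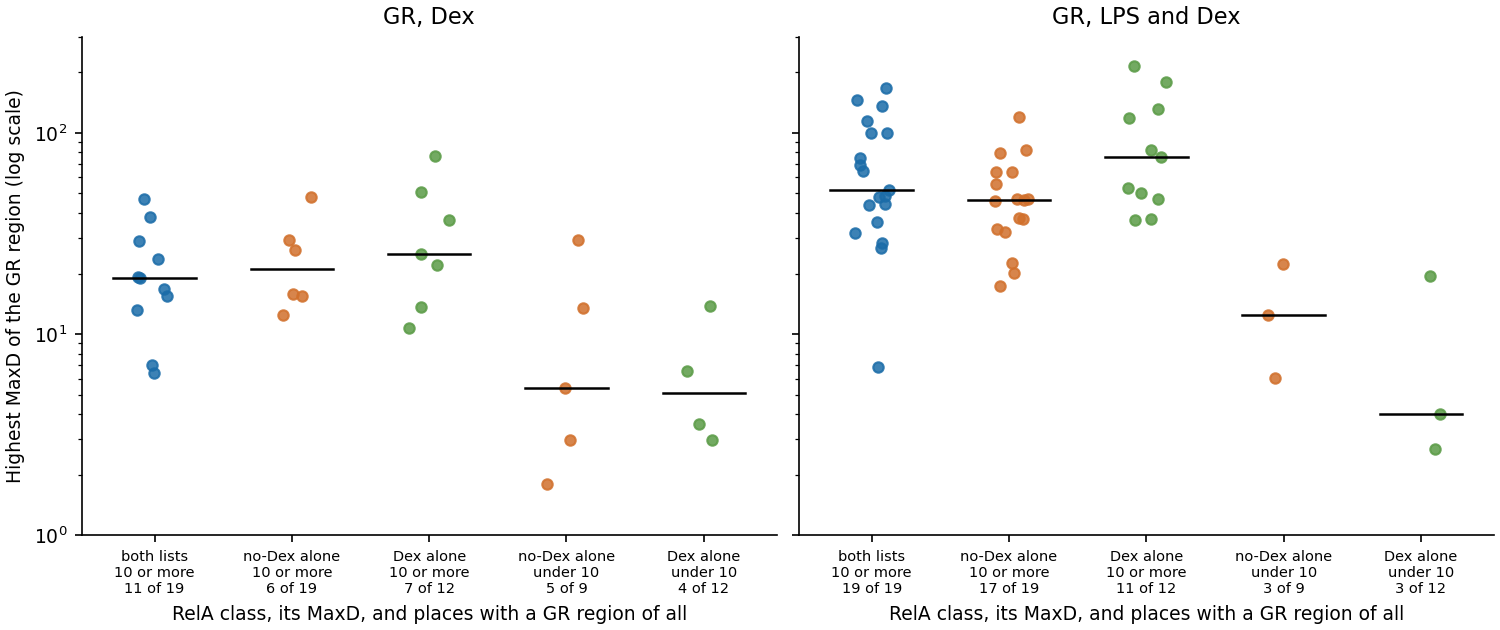
Highest MaxD (log scale) of the GR region on each RelA place that carried one, with Dex on the left and with LPS and Dex on the right, by class and by RelA MaxD (10 or more, or under 10); black lines are medians and the counts under the axis give places with a GR region of all. GR values at places of RelA MaxD under 10 lie mostly below those of the other classes, and in the 3 classes of 10 or more the medians with both agents (52.2, 46.2 and 75.9) lie above those with Dex (18.9, 21.0 and 25.1).

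Where GR was called in both libraries on a strong place, its value with LPS and Dex was a median of 3.75 times that with Dex (24 places), on densities whose scaling between the GR libraries is not stated. The same ratio over all GR regions called in both libraries is not given here, so a gain at these places was not tested. Median GR MaxD with both agents was 52.2 at shared places, 46.2 at strong places without Dex alone and 75.9 at those with Dex alone. The highest were 214 at chr17:31890386-31890675 (Dex alone, RelA 19.9), 180 at the region downstream of Cebpb, 166 at chr13:20878774-20879336 and 145 at chr17:18037645-18038208. GR and RelA centres were close, at a median of 41.0 bp with both agents and 65.0 bp with Dex on strong places. Only overlapping regions enter this distance. The 8 shared places with GR of both agents and none of Dex were Tnfaip3, Sod2 and those of chromosome 3 from 30992455, chromosome 4, chromosome 6, chromosome 10 from 74789339 and from 77597740, and chromosome 12 from 81912844.

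On weak places GR of Dex at any MaxD was called on 9 of 21, or 42.9% (24.5 to 63.5). This was close to the 48.0% (34.8 to 61.5) of strong places, against 17.5% of all RelA regions of 3 h. The likeness to strong places was lost when only GR regions of Dex with a MaxD of at least 10 were counted. Such regions met 3 of the 21 weak places, or 14.3% (4.98 to 34.6), against 44.0% of strong places and 16.3% of the 3 h regions. GR of both agents was called on 6 of 21, or 28.6% (13.8 to 50.0), below the 94.0% (83.8 to 97.9) of strong places and the 62.0% of all RelA regions of 3 h. The median ratio of both agents to Dex was 0.917 over the 5 that had both. The highest GR values among them were at chrX:122525856-122526238, 29.2 with Dex and 22.2 with both agents. Whether weak places on chromosomes X and Y are RelA sites was not tested.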

How the data were processed

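ChIP-seq of RelA, GR and input DNA was analysed from the authors' region lists, 1 per library. The submitters' processing notes name CASAVA and the build mm9. Caller, threshold and library depth are not given in the sources used here. Per the file headers, each region has a maximum (MaxD) and an average tag density, signal values deposited with unstated scaling. The deposited score is a z-score, and the deposited p-value belongs to the same region; neither was used here except that the score ranked regions in 2 alternatives. Positions are as deposited.

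Regions sharing 1 bp or more with an input region were left out, and regions sharing 1 bp or more were joined into places, with Python 3.11.15, pandas 2.3.3, NumPy 2.4.6 and SciPy 1.17.1. The overlap code was tested on simulated regions. With 1 library per condition no test was run. Shares carry Wilson 95% intervals. Every place in both lists was named, and the 8 of highest MaxD in each list alone. The members and rules were chosen with earlier results of these data known. Promoter sequences are from RefSeq (GRCm38.p6); 1 of 1 gene sought was found.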

Additional observations from a re-analysis of the deposited data

How the results depend on the processing

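Values were recomputed with other overlaps, input rules and score bounds, and under settings chosen after the data had been seen (a score of at least 11, a MaxD of at least 10, chromosomes X and Y left out, and densities scaled to input-overlapping pairs). Of 71 values, 56 were counted as unchanged. The bound was the interval for shares, 1.5-fold for counts, and for the MaxD ratio the standard deviation of log2 ratios over the shared places, 0.434. That last bound is wide, so even the -0.012 given below counts as unchanged. The MaxD ratio kept its sign in every setting, and direction does not apply to counts and shares. With regions that meet input kept, the lists held 83 and 75 regions, 37 were in both, and 57.4% of the places were called at 3 h of LPS. With at least 50% of both regions shared, 31.9% of the places met GR of Dex, 51.4% met GR of LPS and Dex, and 31.9% met RelA at 3 h. In the higher-scoring part (50%) of each list, of 24 and 22 regions, 11 were shared, 88.6% met GR of LPS and Dex and 82.9% were called at 3 h. GR of Dex with a MaxD of at least 10 met 35.2% of the places, against 46.5% at any MaxD. With regions of a MaxD of at least 10, 94.0% met GR of LPS and Dex and 96.0% were called at 3 h, against 74.6% and 70.4% of all 71. The median log2 ratio of Dex to no Dex at shared places was -0.26 as deposited, -0.43 scaled and -0.012 with regions that meet input kept, where hardly any difference is left. No replicate could be left out. No paired analysis was possible because each condition had 1 library. Depth of the libraries is unknown, so the part of depth in calls found in 1 list alone was not tested.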
